A study of Homo sapiens with 6 samples.

Results

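Peaks of 6mA-IP-seq that sat on short tandem repeats made of purines alone were examined in the breast cancer cell line MDA-MB-453. A peak was taken when the 100 bp centred on its summit held, on either strand, at least 8 tandem GA units or at least 4 tandem units of GGAA or of GAAA, and no unbroken run of 12 adenines. Of 143532 nuclear peaks in 4 libraries, 11880 met this rule, which used the position of the summit and the reference sequence and no measured value. The number is a sum over the 4 lists, so a locus called in several libraries is counted in each.

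In 6mA-IP-seq, sheared genomic DNA is denatured and precipitated with an antibody against N6-methyladenine (6mA), and the recovered fragments are sequenced and called as peaks over a background. Cells received 10 nM of a scramble siRNA (control) or of siRNA targeting N6AMT1 (si-N6AMT1), the enzyme the study examined as a 6mA methyltransferase, and genomic DNA was taken after 48 hours. Both groups were therefore transfected, came from the same line, and had 2 immunoprecipitated libraries and 1 input library each. The labels number the immunoprecipitated libraries as replicates, and the methods of the study call them biological replicates. The knockdown itself cannot be checked here, because peak lists hold no expression values, and no library made with a control antibody was analysed.

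Purine tandem repeats place all purines on one strand and all pyrimidines on the other. They arise at the tails of mobile elements and as microsatellites, and runs of GGAA are known as binding sites of ETS transcription factors, best described for the fusion factor of Ewing sarcoma. Adenines are dense on their purine strand, and antibody precipitation of DNA is known to recover some short tandem repeats whether or not a base is modified. Whether such recovery contributes to these peaks was not tested.

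The sequences below are the strands that carry the purine run at 6 loci, read 5′ to 3′ from the GRCh37 reference (hg19 coordinates) and not from the reads. They are shown because they are among the highest ranked loci of each pattern of calls named in the text, and capitals mark the tandem units that met the minimum.
LINC00578 intron, 11 GGAA units, called in 4 libraries, chr3:177171423-177171522, - strand: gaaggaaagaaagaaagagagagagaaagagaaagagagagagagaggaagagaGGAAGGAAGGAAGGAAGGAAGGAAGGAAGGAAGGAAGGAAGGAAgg
intergenic, 2 runs of 4 GAAA units, called in 4 libraries, chr20:43840619-43840718, + strand: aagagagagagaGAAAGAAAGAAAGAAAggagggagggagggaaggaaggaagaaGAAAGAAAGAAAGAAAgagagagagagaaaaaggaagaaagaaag
promoter window of G0S2, 16 GA units, called in both control libraries alone, chr1:209848022-209848121, - strand: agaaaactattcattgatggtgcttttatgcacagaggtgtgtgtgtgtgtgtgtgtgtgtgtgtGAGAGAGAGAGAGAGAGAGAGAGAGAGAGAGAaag
intergenic, 2 runs of 4 GGAA units, called in both control libraries alone, chr5:105471608-105471707, - strand: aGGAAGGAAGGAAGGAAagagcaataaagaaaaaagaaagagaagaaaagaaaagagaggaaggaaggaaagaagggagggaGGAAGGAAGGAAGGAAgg
intergenic, 16 and 4 GAAA units, called in both si-N6AMT1 libraries alone, chr5:14924502-14924601, - strand: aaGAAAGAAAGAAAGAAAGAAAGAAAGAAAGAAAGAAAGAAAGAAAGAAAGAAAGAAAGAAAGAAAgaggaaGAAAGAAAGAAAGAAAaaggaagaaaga
promoter window of DKK3, 12 GAAA units, called in both si-N6AMT1 libraries alone, chr11:12032252-12032351, + strand: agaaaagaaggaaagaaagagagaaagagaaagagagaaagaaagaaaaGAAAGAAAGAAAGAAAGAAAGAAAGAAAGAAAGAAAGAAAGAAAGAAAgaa
In most of these windows the counted run adjoins a longer stretch of purines in other arrangements. Several runs reach the edge of the window or nearly so, and what lies beyond them is not shown. The locus at G0S2 differs, since its 16 GA units follow a run of alternating G and T.

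The 4 lists held 2676 and 2673 such peaks in control versus 3341 and 3190 in si-N6AMT1. The nuclear peaks they were drawn from numbered 30446 and 33405 in the control lists and 38842 and 40839 in the si-N6AMT1 lists, so that 7.81% to 8.79% of each list sat on a purine repeat. The counts did not overlap between groups, with both si-N6AMT1 libraries higher, whereas the shares did. The mean difference in number was 591 peaks (si-N6AMT1 minus control) with p = 0.333 in a two-sided exact permutation test, the smallest p that 2 against 2 libraries can give, and the whole si-N6AMT1 lists were longer too. The share was 8.40 ± 0.557% in control versus 8.21 ± 0.559% in si-N6AMT1 (SD, n = 2 each), a difference of -0.189 points that was smaller than the spread between replicates (p = 0.667, exact permutation test). When each list was cut to its 30451 peaks of highest −log10 p, the direction turned: the shares became 8.79% and 8.60% in control versus 10.3% and 9.57% in si-N6AMT1 (exact permutation p = 0.333). The comparison of shares between groups therefore depended on how many peaks were taken from each list.

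GAAA was the most frequent class, found at 4.89% and 4.46% of control and 5.02% and 4.63% of si-N6AMT1 nuclear peaks. GGAA followed with 3.02% and 2.65% in control versus 2.77% and 2.63% in si-N6AMT1. GA repeats were at 2.06% and 1.95% in control versus 2.05% and 1.59% in si-N6AMT1. The order of the 3 classes was the same in all 4 libraries, and the groups overlapped in each class. The differences in the 3 class shares each had p = 0.667 (two-sided exact permutation test, adjusted p = 0.667 over 6 tests). With 2 libraries a group this test cannot give a p under 0.333. With equal numbers of peaks the GAAA shares no longer overlapped, at 4.89% and 4.82% in control versus 6.05% and 5.76% in si-N6AMT1 (exact permutation p = 0.333), and the GA and GGAA differences turned direction. Windows with more than 1 class numbered 354 and 347 in the control lists and 468 and 416 in the si-N6AMT1 lists, so the classes do not add up to the total.

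**Figure D1:**
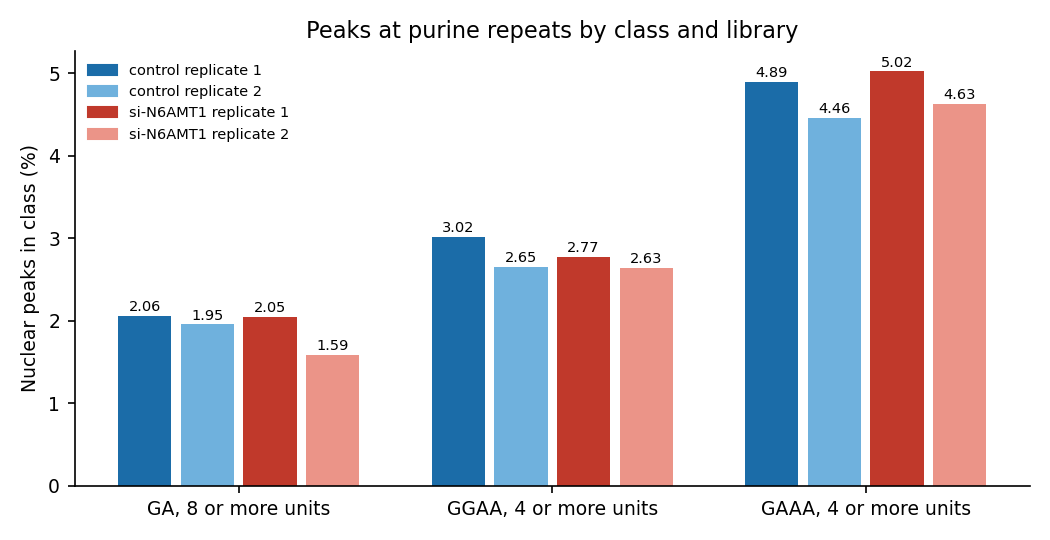
Share of nuclear peaks (%, y axis) whose summit window held a GA, GGAA or GAAA repeat, with 1 bar for each of the 4 libraries and the value above it. GAAA was highest and GA lowest in every library, and no class separated control from si-N6AMT1.

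The repeats lay at the summits and not merely in the neighbourhood of the peaks. Windows of the same size 1000 bp to each side of the same summits met the rule in only 0.197%, 0.184%, 0.183% and 0.175% of cases (both control libraries, then both si-N6AMT1 libraries, each in order of replicate number, as in all lists of 4 values here). The share at the summit was thus 43.5 to 47.1 times that of the flanks. The flank values lay close to the genome, where 0.178% of 100-bp tiles met the rule (50925 of 28586281). Summit minus flank averaged 8.12 points and was positive in 4 of 4 libraries (two-sided exact sign-flip test, in which only 2 of the 16 sign assignments reach this size, the fewest that 4 libraries allow and not enough to pass 0.05). Each later comparison within libraries that had 1 sign in 4 of 4 libraries gave this same smallest result. The difference between summit and flank did not differ detectably between groups (si-N6AMT1 minus control -0.178 points, exact permutation p = 0.667). With equal numbers of peaks it was higher in si-N6AMT1, at 8.59 and 8.41 points in control versus 10.1 and 9.38 points in si-N6AMT1 (exact permutation p = 0.333). With the longer minimum of 12 GA or 6 GGAA or GAAA units the difference was 3.53 points, and with 50-bp windows 5.10 points, again positive in 4 of 4 libraries.

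The share of windows that met the rule fell steeply with distance. At 100 bp from the summit it was 4.24% to 5.18% over both sides and all libraries, and at 500 bp downstream 0.240% to 0.268%. Purines were on the plus strand in 50.7% to 51.6% of the repeat peaks, close to an even split.

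**Figure D2:**
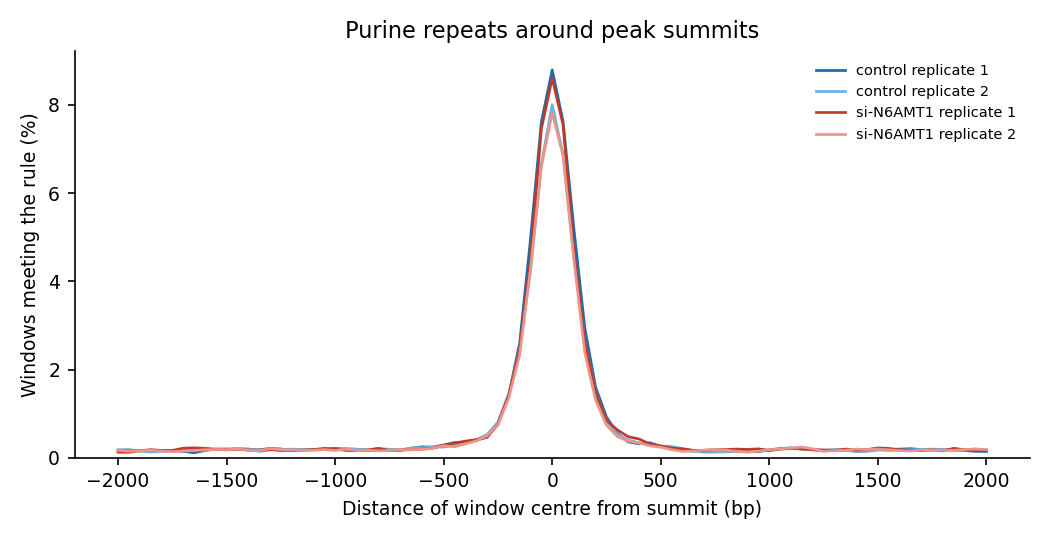
Share of 100-bp windows that met the repeat rule (%, y axis) against the distance of the window centre from the summit (bp, x axis), with 1 line per library. All 4 lines peak at the summit, at 7.81% to 8.79%, and return to the flank level of 0.175% to 0.197% on both sides.

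Repeat peaks were stronger than the other nuclear peaks of the same list. Fold enrichment, which divides the fragments piled up at the summit by the local background after 1 is added to both, had medians of 8.36 and 7.90 in control versus 8.04 and 7.66 in si-N6AMT1. Other nuclear peaks had medians of 7.32 and 6.79 in control versus 6.77 and 6.53 in si-N6AMT1. The gap was 1.14 on average (SD 0.0958 over the 4 libraries), larger than the spread between libraries and positive in 4 of 4. The interquartile ranges of both kinds of peak overlapped widely. In si-N6AMT1 the gap was larger by 0.126 than in control (exact permutation p = 0.333). With equal numbers of peaks this direction turned, since the gaps were 1.04 and 0.912 in control versus 0.837 and 0.791 in si-N6AMT1 (exact permutation p = 0.333).

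The pileup and the background behind each fold were solved from the fold and the −log10 p. Repeat peaks had median pileups of 19 and 20 fragments in control and 21 in each si-N6AMT1 library, against 16, 18, 18 and 18 in the other peaks of these libraries. Their local background was 1.23 and 1.60 fragments in control versus 1.67 and 1.79 in si-N6AMT1, against 1.29, 1.69, 1.67 and 1.81 in the other peaks. The higher fold thus went with a higher pileup, while the backgrounds differed by -0.044 fragments on average and by almost nothing in si-N6AMT1 replicate 1. Repeat peaks were also narrower, with median widths of 434, 429, 432 and 430 bp against 450, 447, 445 and 445 bp. The mean difference in width was -15.5 bp with the same sign in 4 of 4 libraries.

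**Figure D3:**
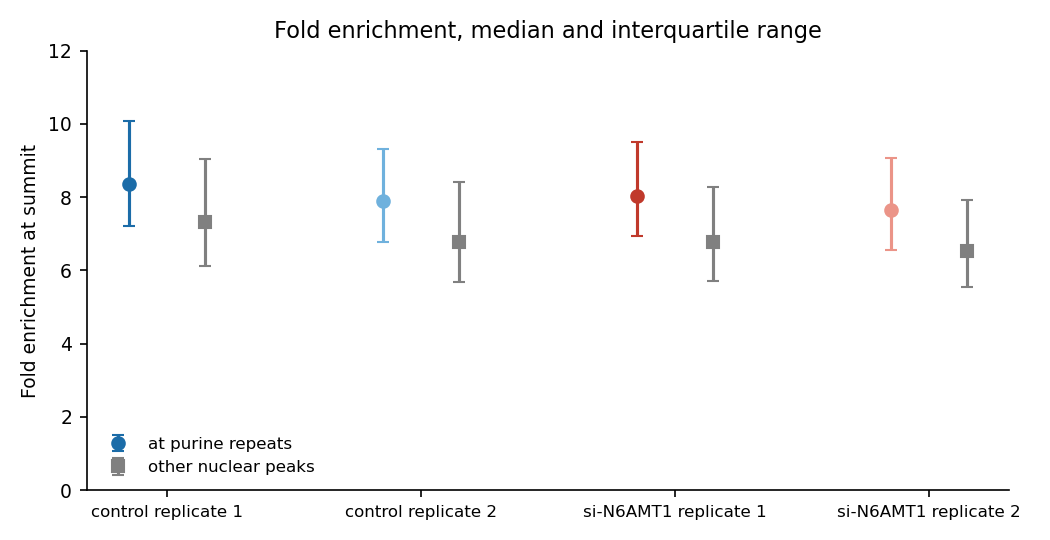
Fold enrichment at the summit (linear scale from 0, y axis) in each library, with the median as a point and the interquartile range as a bar. The medians of repeat peaks (circles, 7.66 to 8.36) exceed those of the other nuclear peaks (grey squares, 6.53 to 7.32) in every library, with overlapping ranges.

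Among windows with 1 class alone, GGAA had the highest median fold in each library: 8.54 and 8.04 in control versus 8.28 and 7.78 in si-N6AMT1. GAAA gave 8.30 and 7.80 in control versus 8.09 and 7.74 in si-N6AMT1, and GA 8.27 and 7.76 in control versus 7.82 and 7.36 in si-N6AMT1. These gaps were small beside the interquartile ranges and were not tested. In no class and no library did the longest runs have a higher median fold than the shortest. In GGAA windows with 4 or 5 units the median fold was 8.79, 8.46, 8.29 and 7.91 in the 4 libraries, and with 10 to 25 units 7.97, 7.65, 7.91 and 7.50. Nor did the minimum mark a step in fold: windows with 7 GA units, just outside the rule, had medians of 8.32, 7.92, 8.05 and 7.91, and those with 8 units, just inside, 8.29, 8.13, 8.18 and 7.52. For GAAA, 3 units outside the rule gave 8.90, 8.48, 8.28 and 7.94, and 4 units inside it gave 8.31, 8.14, 8.28 and 7.91.

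The base composition around the repeats reached beyond what the rule asks for. On the richer strand, purines made up 92.1% to 92.7% of the 100-bp window at repeat peaks, of which the repeat minimum itself requires only 16 bases. In the 100 bp centred 100 bp away from the summit, the same strand still held 74.1% to 75.4%. At 1000 bp the richer strand was chosen anew in each window, which alone gives more than an even split, and it held 57.5% to 57.6%. The other nuclear peaks, measured alike, held 69.3% to 69.9% purines at the summit, 64.3% to 65.1% beside it and 58.2% to 58.3% at 1000 bp. A milder strand asymmetry was thus present at their summits too. CG dinucleotides averaged 0.196 to 0.223 per window at repeat peaks and 0.553 to 0.601 at other peaks. The 8 bases CAGGCTGG, the motif the study named, searched on both strands, were in 0.898% to 1.23% of repeat windows and in 2.80% to 4.18% of the others. CG and this motif both mix purines and pyrimidines, whereas the rule fills at least 16 bases of the window with purines alone. The part of the rule in these differences was not tested. Runs of 8 CA units, which mix both kinds of base too, were in 4.45% to 6.32% of repeat windows and in 2.91% to 4.29% of the others.

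Repeat peaks lay less often in introns than the other peaks. Of their summits, 45.9% and 45.5% in control versus 44.8% and 45.3% in si-N6AMT1 were intronic, against 54.0%, 54.1%, 54.3% and 53.6% of the other summits. The mean difference was -8.64 points, with the same sign in 4 of 4 libraries, and the gap exceeded its spread between libraries (SD 0.611). The repeats themselves are distributed in this way, since 46.4% of all runs in the genome that meet the minimum are intronic. Intergenic sequence held 51.0% to 52.3% of the repeat summits and 42.7% to 43.5% of the others. Promoters, within 1000 bp of a transcription start site, held 2.21% to 2.69% of the repeat summits and exons 0.486% to 0.935%.

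Inside introns, the purines were more often on the template strand than on the sense strand of the gene. Purines were on the sense strand in 33.3%, 34.9%, 34.9% and 34.2% of intronic repeat peaks, against 41.5% of the 26963 intronic runs of the genome. The peaks were lower in 4 of 4 libraries, by 7.24 points on average. Within single classes the gap was smaller: GAAA runs alone had 35.1% on the sense strand in the genome and 29.3% to 30.9% at peaks. For GGAA the genome gave 36.2% and the peaks 31.9% to 37.1%, which overlap, and for GA the genome gave 48.8% and the peaks 43.0% to 48.3%.

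The same question can be asked from the side of the genome, which holds 61609 runs that meet the minimum (26102 GA, 15972 GGAA and 19535 GAAA) with no 12-adenine run beside them. A peak overlapped 15.7% and 15.4% of these runs in control versus 19.1% and 18.4% in si-N6AMT1. Peaks covered 0.578% and 0.628% of the genome in control versus 0.729% and 0.764% in si-N6AMT1. Positions 10000 bp to either side of each run were overlapped in 0.593%, 0.668%, 0.794% and 0.851% of cases, so the runs were overlapped 21.7 to 26.4 times as often, and the difference was positive in 4 of 4 libraries. Most runs nevertheless had no peak: 72.0% were free of peaks in all 4 libraries, and 8.10% had one in each. Runs are not separate loci, because 1 peak can overlap several neighbouring runs, also of different classes. Runs with a peak in all 4 libraries numbered 4988. Peak regions merged over the libraries that held a run and were called in all 4 numbered 2403.

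Intergenic runs were overlapped in 18.3% of cases and intronic runs in 16.2% (means over libraries), a difference of 2.11 points with the same sign in 4 of 4. The classes differed more. Of GA runs, a peak overlapped 7.01% and 6.95% in control versus 8.23% and 7.35% in si-N6AMT1. Of GGAA runs, it overlapped 20.7% and 20.1% in control versus 24.5% and 24.1% in si-N6AMT1. Of GAAA runs, it overlapped 23.1% and 22.9% in control versus 29.3% and 28.6% in si-N6AMT1. GGAA runs exceeded GA runs by 13.1 to 16.8 points and GAAA runs exceeded GGAA runs by 2.43 to 4.79 points over the libraries, each in 4 of 4. Against the positions beside them, GA runs were overlapped 9.54 to 12.4 times as often, GGAA runs 27.5 to 32.7 times and GAAA runs 30.5 to 38.6 times. Although GA is the commonest run in the genome, it was therefore the rarest class among the peaks.

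Run length and overlap were related differently in each class. For GAAA, the mean over the 4 libraries was 24.5% at 4 or 5 units and 32.5% at 10 to 12 units and was lower again, at 16.8%, in the 134 runs of 21 to 30 units. For GGAA it was 24.6% at 4 or 5 units and 12.4% in the 206 runs of 17 to 20 units. For GA it was 8.16% at 8 or 9 units and 5.29% at 21 to 30 units. The shape was alike in all 4 libraries for GGAA and GAAA, with the highest GAAA value at 10 to 12 units in each. How well reads align within long repeats was not tested.

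**Figure D4:**
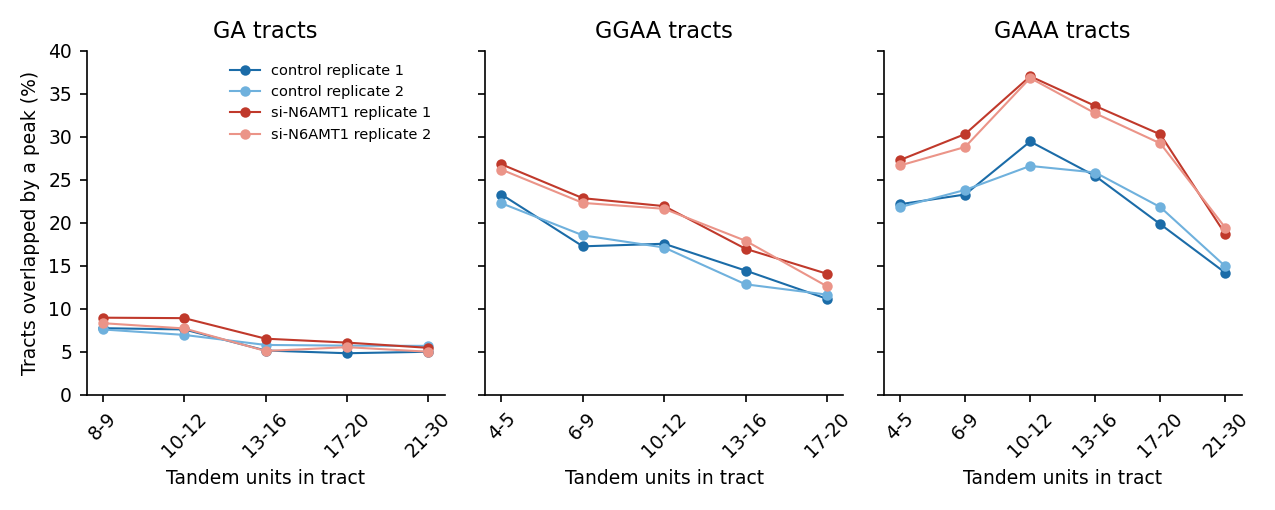
Share of genomic repeat runs overlapped by a peak (%, y axis) by number of tandem units (x axis), in 1 panel each for GA, GGAA and GAAA and 1 line per library. GA values stay under 10%, GGAA values are highest at 4 or 5 units, and GAAA values are highest at 10 to 12 units in all libraries.

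Overlap of runs was higher in both si-N6AMT1 libraries than in either control library. Control averaged 15.5 ± 0.177% and si-N6AMT1 18.8 ± 0.512% (SD, n = 2 each), a difference of 3.25 points with p = 0.333, the smallest the exact permutation test allows. The si-N6AMT1 lists were longer and covered 1.24 times as much of the genome, and the ratio of si-N6AMT1 to control overlap was 1.12 for GA, 1.19 for GGAA and 1.26 for GAAA runs. With equal numbers of peaks the difference was 1.82 points (15.7% and 15.1% in control, 17.7% and 16.6% in si-N6AMT1, exact permutation p = 0.333). Counting only runs within 50 bp of a summit gave 7.30% and 7.26% in control versus 9.37% and 8.89% in si-N6AMT1, a difference of 1.85 points and a ratio of 1.25, against 1.21 for any overlap. The part of list length and depth in this difference was otherwise not tested, nor was the difference between classes.

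Chromosomes differed several-fold in the share of runs with a peak. The mean over libraries was lowest on chromosome 18, at 6.25%, and on chromosome X, at 8.10%, and highest on chromosome 17, at 23.1%, chromosome 14, at 22.9%, and chromosome 20, at 22.7%. None of the 574 runs on chromosome Y had a peak in any library. Chromosome Y held few nuclear peaks of any kind, 5 and 8 in control versus 11 and 10 in si-N6AMT1. Whether these cells carry a chromosome Y was not tested, so no limit on the share of its runs with a peak can be given. The other nuclear peaks varied as well, with 2.86 per Mb on chromosome 18 and 12.5 on chromosome 17. Positions 10000 bp beside the runs were overlapped in 0.129% of cases on chromosome 18 and 0.908% on chromosome 17. As a share of the peaks on a chromosome, repeat peaks ranged from 6.50% on chromosome 9 to 10.9% on chromosome 17 (chromosome 18: 8.12%), so the low value of chromosome 18 was shared with its other peaks. The part of the number of chromosome copies was not tested.

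**Figure D5:**
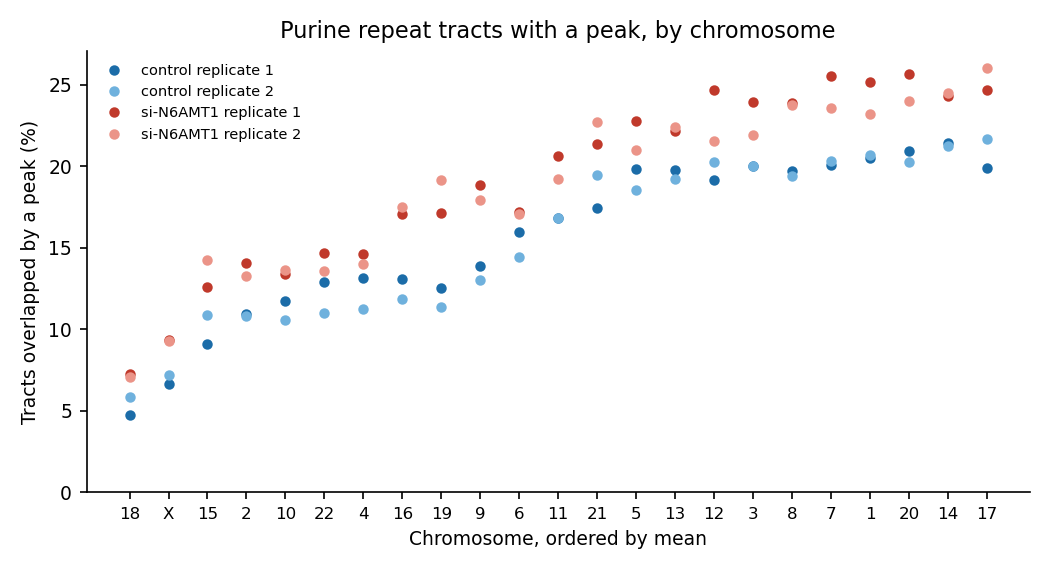
Share of repeat runs overlapped by a peak (%, y axis) on each chromosome, ordered by the mean of the 4 libraries (points). Chromosomes 18 and X are lowest and chromosomes 14 and 17 highest, and on each chromosome shown both si-N6AMT1 points lie above both control points.

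Repeat peaks were found again in the other replicate more often than other peaks. In control replicates 1 and 2, 64.1% and 64.9% of repeat peaks shared at least 1 bp with a peak of the other control library, and in the si-N6AMT1 pair 64.1% and 67.6%. For other nuclear peaks the values were 57.8%, 52.3%, 56.6% and 53.4%. Each repeat value was above each of the others, and the repeat peaks were also the stronger ones, whose part in this was not tested. Control repeat peaks overlapped the longer si-N6AMT1 lists in 68.1% to 72.0% of cases, more than their own replicate. The si-N6AMT1 repeat peaks overlapped the shorter control lists in 56.5% to 57.9%. The lists differ in length, so these shares do not measure agreement within a group alone.

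When overlapping peaks of the 4 libraries were merged, 72532 nuclear regions resulted, of which 4048 had a repeat peak in every library that called them. Of these, 653 (16.1%) were called in all 4 libraries, against 16.7% of all nuclear regions. The 99 regions called in the 2 control libraries but in no si-N6AMT1 library were 2.45%, against 2.63% of all regions, and the 256 with the opposite pattern were 6.32%, against 5.86%. All 3 shares were near the background and are no result about the repeats. The definition asks for a repeat summit in each calling library and so becomes stricter with every library. Regions that merely held a run in their sequence numbered 8576, and 28.0% of them were called in all 4 libraries, against 15.2% of regions without a run. Their shares called in control alone (2.31%) and in si-N6AMT1 alone (6.06%) again lay near 2.67% and 5.83% of the regions without a run. These regions were somewhat wider, with a median of 490 against 463 bp, and width itself comes partly from merging.

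Among the highest ranked repeat regions called in all 4 libraries, chr3:177171204-177172027 lay in an intron of the long non-coding gene LINC00578 at 11 GGAA units, with pileups of 59, 57, 54 and 59 fragments over backgrounds of 3.28, 4.28, 3.49 and 3.78. Another, chr3:169151064-169151708, lay in an intron of MECOM, which encodes a zinc finger transcription factor, at 8 GAAA units, with folds of 13.7, 9.86, 9.81 and 10.9. The folds of the groups overlapped at MECOM, as did the pileups at LINC00578. The backgrounds at LINC00578 were above the median background of repeat peaks, as were those at MECOM, at 4.61, 5.69, 5.22 and 5.64.

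The highest ranked region called in all 4 libraries in which each peak held GAAA and no other class, chr20:43839975-43840939, lay 4995 bp from the start site of SEMG1, a gene of a seminal fluid protein, with folds of 16.8 and 15.8 in control versus 13.3 and 13.1 in si-N6AMT1. The groups did not overlap in fold. The pileups were close, 45, 47, 46 and 46, and the backgrounds were 1.74, 2.04, 2.53 and 2.60. These are fragment counts that were not scaled to a common depth. The lowest background of any nuclear peak was 1.05, 1.36, 1.41 and 1.53 in the 4 lists. The part of depth in the difference in fold was not tested. Among regions in which every peak held 1 class alone, 7.92% of 821 GA, 11.7% of 727 GGAA and 15.4% of 1550 GAAA regions were called in all 4 libraries. Among regions that merely held a run of the class, the shares were 26.5% of 2868 for GA, 30.9% of 4002 for GGAA and 30.5% of 4619 for GAAA, so they lay below or above the 16.7% of all nuclear regions according to the definition.

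Of the regions called in control alone, the highest ranked, chr1:209847718-209848290, held 16 GA units 685 bp from the start site of G0S2, which encodes an inhibitor of a triglyceride lipase, within the body of HSD11B1-AS1. It had folds of 11.5 and 10.2 in the control libraries, from 33 and 35 fragments. The next, chr5:105471399-105471886, was intergenic with 2 runs of 4 GGAA units and folds of 11.7 and 11.4. The third, chr3:176508885-176509354, held 13 GGAA units within the span of the gene LINC01208, with folds of 8.87 and 9.36. Its summit lay outside the basic set of annotated transcripts used here. No si-N6AMT1 library had a peak there, which says that its signal did not pass the caller's threshold and gives no level.

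Of the regions called in si-N6AMT1 alone, the highest ranked, chr5:14924334-14924796, was intergenic, with a run of 16 GAAA units and folds of 8.70 and 7.79. The second, chr11:12032106-12032562, held 12 GAAA units 986 bp from the start site of DKK3, which encodes a secreted Dickkopf family protein, with folds of 7.32 and 8.29. The third, chr10:102431926-102432427, held 9 GGAA units and had folds of 10.8 and 11.4, with its nearest start site, that of the transcription factor gene PAX2, 62978 bp away. The regions named by pattern of calls kept those calls both among peaks whose −log10 q reached 5 and when lists of equal length were compared.

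Repeat regions lay in the bodies of 1282 of 20162 protein-coding genes (6.36%), whereas 8954 (44.4%) held a peak region of any kind. The genes that held the most were long. DLG2, which encodes a synaptic scaffold protein over 2173 kb, held 8, next to 54 runs and 123 peak regions of any kind. CDH12, which encodes a cadherin, held 6 over 1103 kb, with 36 runs and 45 peak regions. LINC01208, MIR4300HG, NRXN3 and PCDH15 held 5 each, over 452, 897, 1698 and 1825 kb, with 27, 32, 36 and 44 runs and 37, 30, 34 and 61 peak regions, and were tied for the remaining places among the 5 genes named by count.

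The 8 cell cycle regulators of the study held 6 repeat peaks in all within their bodies and 5000 bp to each side: 1 in each control library, and, after si-N6AMT1, 1 in the first replicate and 3 in the second, of 9, 8, 11 and 13 peaks of any kind. Of their peaks, 11.1%, 12.5%, 9.09% and 23.1% were thus repeat peaks, from 1 to 3 peaks a library, against 7.81% to 8.79% of all nuclear peaks. The list is that of the study, which named it from the same knockdown. These peaks lay at RB1, the retinoblastoma pocket protein gene with 8 runs, and at CDKN1A, which encodes the kinase inhibitor p21 and has 3 runs. RB1 had 0 and 1 in control versus 1 and 2 in si-N6AMT1, and CDKN1A had 1 and 0 in control versus 0 and 1 in si-N6AMT1. N6AMT1 itself, the 6mA demethylase gene ALKBH1 and METTL4, which encodes another proposed 6mA methyltransferase, held none in any library, although N6AMT1 has 3 runs.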

How the data were processed

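The authors trimmed and filtered the reads (Trimmomatic), mapped them to hg19 using Bowtie2 2.3.5, discarded duplicates by SAMtools 1.9 and ran MACS2 on every immunoprecipitated library by itself. Which input entered each call was not given in the sources used here. Each deposited list gives coordinates, summit, a score, fold enrichment (a ratio), −log10 p and −log10 q, all as the authors' peak caller wrote them. Total reads are unknown, and pileups with medians of 16 to 21 fragments bound the precision of each call.

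Sequence came from GRCh37, and no peak ran past a chromosome end. The 5 mitochondrial peaks per list were left out, as they are outside the rule. Pileup and background were solved from fold and −log10 p, and the pileup was within 0.02 of a whole number for 100% of nuclear peaks. Runs were maximal tandem runs meeting the minimum. Overlap needed 1 bp and was computed in Python 3.11.15 with numpy 2.4.6, scipy 1.17.1 and pandas 2.3.3. The scans were tested on simulated data. Groups were compared by exact permutation of 4 libraries, and differences within libraries by exact sign flips. The 5 sign-flip comparisons of runs (class, neighbouring positions, element and strand) were added after seeing the data. Genes were from GENCODE lifted to GRCh37.

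Named regions had a repeat peak in each calling library and were ranked by their lowest percentile of −log10 q: 3 per pattern of calls, and the highest of each class alone. The regions that this rule names but the text does not are not reported here. The members and lists were chosen with earlier results of these data known.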

Additional observations from a re-analysis of the deposited data

How the results depend on the processing

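Of 157 values under other settings, 17 could not differ by construction (24 chromosomes hold all nuclear peaks, and balanced pairs keep a mean difference). Of the other 140, 119 kept their direction or, for region counts, moved by no more than 1.5 times. Another 13 turned direction, and 8 region counts moved by over 1.5 times. No setting could give a p under 0.05 in these exact tests, so the side of that threshold could not change. The difference in the share of repeat peaks (si-N6AMT1 minus control, -0.189 points) became 1.25 points with equal numbers of peaks, 0.154 with the longer unit minimum, 0.00253 with adenine runs kept and 0.150 with 50-bp windows, and ranged from -0.584 to 0.206 with 1 library left out. It was above 0 without control replicate 1 (0.205) and without si-N6AMT1 replicate 2 (0.206). The GA share difference became 0.0887 with equal numbers and ranged from -0.420 to 0.0380 with 1 library left out. The GGAA difference became 0.335 with equal numbers and 0.0442 with the longer minimum, and ranged from -0.317 to 0.0549 with 1 library left out. The GAAA difference was 1.04 points with equal numbers and ranged from -0.0628 to 0.364 with 1 library left out. The cause was not tested. With 2 libraries a group the exact permutation test between groups cannot give a p under 0.333, so these p-values say nothing of stability. Leaving out a library raised the regions called in control alone from 99 to between 205 and 448, and those in si-N6AMT1 alone from 256 to between 437 and 923, because fewer libraries must then agree. These alternatives for region counts were chosen after seeing the data.

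Replicate numbers were shared by the groups, and the correlation of same-numbered deviations was 0.0053 over all regions and -0.0091 over repeat regions. These values concern single regions. The share of repeat peaks was higher in replicate 1 of both groups, so whether the libraries were paired remains undecided. With the replicate block, the differences were by construction the same 591 peaks, -0.189 points of share and 3.25 points of run overlap, and p was 0.5, the smallest an exact sign-flip test over 2 pairs gives.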
